A study of Mus musculus with 12 samples.

Results

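The change in gene expression between day 5 and day 8, the interval in which Gdf11 was added to differentiating mouse embryonic stem (ES) cells, was compared between Smchd1 del/del and Smchd1 fl/fl cells. The measure was an interaction: the log2 change between day 5 and day 8 in del/del cells minus the same change in fl/fl cells. A positive interaction therefore means a more positive response in del/del, which can be a larger increase or a smaller decrease. It was taken over 8 of the 12 libraries of the series, 2 in each of 4 groups, and over 13267 of the 25965 genes in the table, those above 0 on the deposited log2 scale in 2 or more of the 8. The groups were Smchd1 del/del at day 5, Smchd1 del/del at day 8, Smchd1 fl/fl at day 5 and Smchd1 fl/fl at day 8. All cells were male C57BL/6 and came from the same pair of ES lines, line 1 and line 3, each derived from 1 blastocyst in 2i+LIF medium. Infection of part of each line with the retrovirus MSCV-Cre-puro, followed by puromycin selection, made that part del/del. The fl/fl part was neither infected nor selected, so deletion and transduction with selection cannot be told apart. Both parts went through serum+LIF, then lost LIF and received Fgf2, then a Gsk3 inhibitor from day 2 and Gdf11 from day 6, so that day 8 follows 2 days of Gdf11. Cells of day 8 without Gdf11 were not analysed here, so the action of Gdf11 and the passage of time cannot be told apart either.

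Fgf2 with a Gsk3 inhibitor, which activates Wnt signalling, is used to bring ES cells towards neuromesodermal progenitors, the bipotent cells of the tail end of the embryo that feed spinal cord and paraxial mesoderm. Gdf11 is a ligand of the TGF-beta family that signals through activin receptors and Smad2/3, and in the mouse embryo it drives the passage of the body axis from trunk to tail, when the Hox genes at the 5′ ends of the clusters come on and the progenitor programme is closed. Smchd1 encodes a non-canonical SMC protein that keeps chromatin silent on the inactive X chromosome, at imprinted and protocadherin clusters and at Hox clusters.

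Gene reads (in M, mega) were 4.78 and 3.99 M in the del/del day 5 libraries, 8.11 and 7.57 M in del/del day 8, 4.36 and 7.6 M in fl/fl day 5, and 5.97 and 1.51 M in fl/fl day 8, line 1 before line 3 here and throughout. A pair of libraries stood apart. Across all genes the levels of del/del and fl/fl cells of the same line and day had a rank correlation of 0.989 in line 1 at day 5 and 0.940 in line 1 at day 8, but 0.913 in line 3 at day 5 and 0.850 in line 3 at day 8. The del/del day 5 library of line 3 correlated at 0.940 with that of line 1, against 0.981 between the fl/fl lines at that day, and the fl/fl day 8 library of line 3 correlated at 0.943 with that of line 1, against 0.981 between the del/del lines. The fl/fl day 8 library of line 3 is also the shallowest, and its column is named as a merge, with no word on what was merged. Levels below are rescaled RPM (reads per M reads; rescaled RPM): the deposited value taken out of the log2, with each library rescaled to a common median gene, and with a gene of 0 reads entered as 0.9 reads. Smchd1 itself (chr17:71344489-71475343 in mm10, minus strand) had 3.64 and 4.63 rescaled RPM in del/del day 5 and 3.26 and 3.05 in del/del day 8, against 14.4 and 20 in fl/fl day 5 and 20.9 and 14.0 in fl/fl day 8. All del/del libraries lay below all fl/fl libraries, and the interaction was -0.39 ± 0.39 (SE of the fit, on 2 libraries a group).

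No gene passed the test of the interaction. In limma's moderated test with Benjamini-Hochberg adjustment over all 13267 genes, 0 (0.0%) had an adjusted p under 0.05, and the smallest adjusted p was 0.39. A limma fit with precision weights from the reads (voom) also called 0. At an unadjusted p under 0.05 there were 587 genes with a positive interaction (4.42% of those tested) and 414 with a negative one (3.12%), and 949 in all with voom. Calls appeared when the fl/fl day 8 library of line 1 was left out, 319 positive and 191 negative, with the fl/fl day 8 group then held by the library of line 3 alone. In both lines the interaction was past 2-fold upwards in 501 genes (3.78%) and downwards in 218 (1.64%). A positive interaction was found in 50.4% of all tested genes. Counts of list members below stand against these shares. On the deposited scale, before each library was rescaled, the median gene had an interaction of 1.29 and 128 genes were called as higher, so all values are given relative to the median gene. All interactions below are therefore values with their SE and not calls, and a p that misses the threshold does not show that the genotypes responded alike.

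Within each genotype the response could be called. Here and in the lists below, genes counted as rising or falling are those called at an adjusted p under 0.05. Such counts in a list stand against the shares of all tested genes given here. In del/del cells 592 genes rose (4.46%) and 240 fell (1.81%) between day 5 and day 8, and in fl/fl cells 174 rose (1.31%) and 83 fell (0.626%). Of the genes that rose, 145 did so in both genotypes, 24.5% of the del/del list and 83.3% of the fl/fl list. Of those that fell, 38 did so in both, 15.8% of the del/del list and 45.8% of the fl/fl list, and 0 genes were called in opposite directions. Across genes the responses of the genotypes correlated at r = 0.545 (rank correlation 0.399), a description over genes that share libraries and are no replicates. The difference in the number of calls was itself not tested, and the numbers rested on single libraries. With line as a block, 527 genes were called in del/del and 95 in fl/fl. Leaving out each library in turn gave 110 (without del/del day 8 of line 3) to 1204 genes called in del/del and 4 (without fl/fl day 5 of line 1) to 1487 (without fl/fl day 8 of line 1) in fl/fl.

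**Figure D1:**
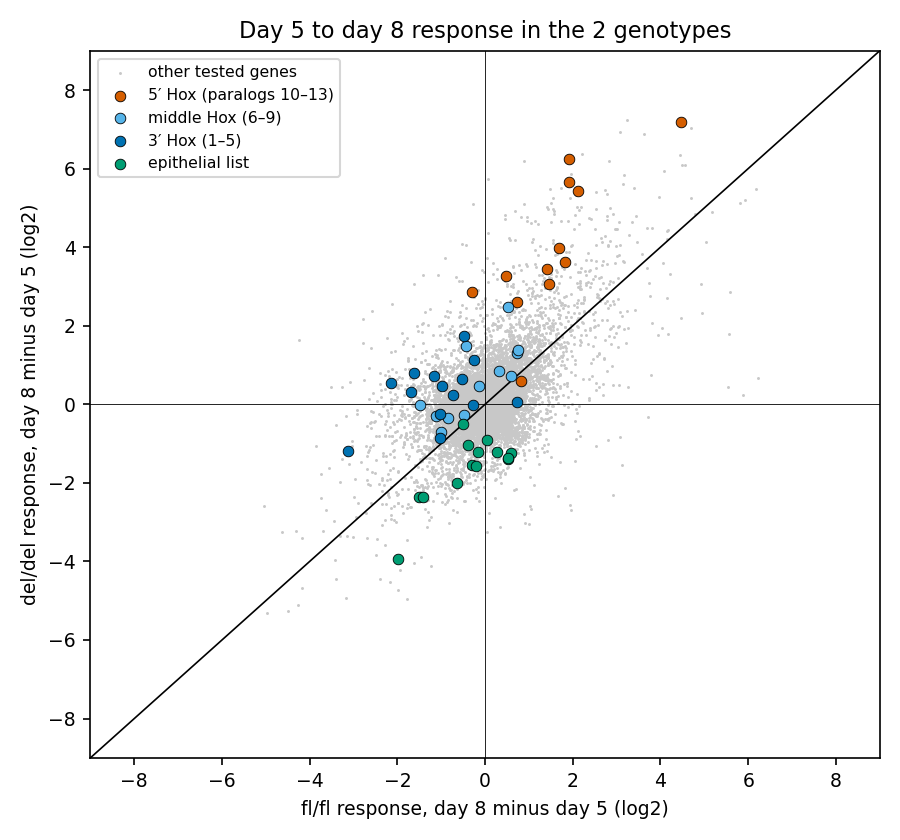
Response of each tested gene between day 5 and day 8 in del/del cells (vertical axis, log2) and in fl/fl cells (horizontal axis, log2), from the fit on 8 libraries; the diagonal marks equal responses. The 5′ Hox genes lie above the diagonal except Hoxc13, and the epithelial genes lie on or below it.

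The posterior Hox genes, those of paralog groups 10 to 13 at the 5′ ends of the clusters, which pattern the lumbosacral and tail region, had the highest median interaction of the 46 lists with tested members. All 12 were tested, and 11 had a positive interaction with a median of 2.50 (range -0.23 to 4.33), against a median of 0.00 over all tested genes. The interaction was past 2-fold upwards in both lines for 9 of the 12, where 3.78% of all tested genes were, and 7 had an unadjusted p under 0.05, where 4.42% did. In del/del cells 8 of the 12 were called as rising between day 5 and day 8 (median response 3.53), where 4.46% of tested genes were. In fl/fl cells 1 was (median 1.57, or 1.44 with a gene of 0 reads placed at a floor of 3 reads over its group), where 1.31% were. The fitted response was above 0 for 12 of the 12 in del/del and for 11 in fl/fl. In bulk RNA, fewer cells of a type and less RNA per cell cannot be told apart, here and in every list that follows.

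Hoxa11, a posterior gene needed for the forelimb zeugopod and the sacral spine, had 0.642 and 1.07 rescaled RPM in del/del day 5 and 12.3 and 13.9 in del/del day 8, against 0.987 and 1.02 in fl/fl day 5 and 3.07 and 3.41 in fl/fl day 8. The genotypes overlapped at day 5 and were well apart at day 8, with both del/del libraries the higher. Its interaction was 2.29 ± 0.50 (2.62 in line 1 and 1.96 in line 3), and the response was 3.98 ± 0.36 in del/del (limma adjusted p = 0.00154) and 1.69 ± 0.36 in fl/fl (adjusted p = 0.0556). The antisense transcript listed as Hoxa11as (chr6:52244393-52249799) had 15 and 11 reads in del/del day 5 and 784 and 796 in del/del day 8, against 24 and 33 in fl/fl day 5 and 70 and 19 in fl/fl day 8. Its interaction of 3.61 ± 0.50 (3.81 and 3.40 in the lines; limma adjusted p = 0.391) shared the smallest adjusted p of all genes. Of the exon bases of Hoxa11, 35% overlap an annotated antisense gene, and no stranded counting is stated in the sources used here, so reads of the sense and antisense transcripts cannot be told apart.

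Hoxd12 and Hoxd13, which pattern the distal limb and the hindmost body, were almost silent at day 5. Hoxd12 had 2 and 5 reads in del/del day 5 and 840 and 911 in del/del day 8, against 0 and 3 in fl/fl day 5 and 53 and 6 in fl/fl day 8. It was the only one of the 12 called as rising in both genotypes. The response was 7.19 ± 0.74 in del/del (limma adjusted p = 0.00184) and 4.48 ± 0.74 in fl/fl (adjusted p = 0.0269), with an interaction of 2.71 ± 1.04. Hoxd13 had 3 and 17 reads in del/del day 5 and 720 and 648 in del/del day 8, against 6 and 21 in fl/fl day 5 and 43 and 10 in fl/fl day 8. Its interaction was 3.73 ± 1.17, with 4.71 in line 1 and 2.75 in line 3. With so few reads at day 5 and in the fl/fl day 8 library of line 3, the sizes of these fold changes rest on counts near 0.

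In the Hoxc cluster Hoxc11 had the most positive interaction of any Hox gene, 4.33 ± 1.06 (3.81 and 4.86 in the lines), with 4 and 0 reads in del/del day 5 and 286 and 258 in del/del day 8, against 4 and 6 in fl/fl day 5 and 16 and 5 in fl/fl day 8. Hoxc12 had 0 reads in all 4 libraries of day 5, 82 and 67 in del/del day 8 and 4 and 0 in fl/fl day 8. Set against a floor of 3 reads over each day 5 group, its level was at least 26.2-fold higher at day 8 in del/del and at least 2.72-fold higher in fl/fl. Hoxc10, which takes part in lumbar patterning, had an interaction of 3.17 ± 1.11 (3.57 and 2.78). Hoxc13, known for its part in hair and nail, stood apart from its neighbours with -0.23 ± 0.54, and had 1.89 and 1.81 rescaled RPM in del/del day 8 against 1.95 and 1.77 in fl/fl day 8. Its sign turned when no filter on low values was applied (0.02).

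Some of the remaining posterior genes also differed between lines. Hoxa10 (1.79 ± 0.85), Hoxd10 (1.87 ± 0.88) and Hoxd11 (2.04 ± 1.09) rose in del/del with limma adjusted p of 0.0123, 0.0447 and 0.0367, and their interactions were 2.99, 2.51 and 2.95 in line 1 but 0.60, 1.23 and 1.12 in line 3. At day 5 these genes were already higher in the del/del library of line 3 than in that of line 1: Hoxd11 had 1.39 and 6.45 rescaled RPM in del/del day 5, against 2.41 and 0.892 in fl/fl day 5. Hoxa13 had an interaction of 2.80 ± 1.21 and Hoxb13, which limits axis length in the mouse, one of 1.62 ± 1.26 with opposite signs in the lines (3.88 and -0.63). At day 8 both del/del libraries lay above both fl/fl libraries for 11 of the 12 posterior genes, where this was so for 32.6% of tested genes, and at day 5 for 2 of the 12, where it was so for 15.9%.

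**Figure D2:**
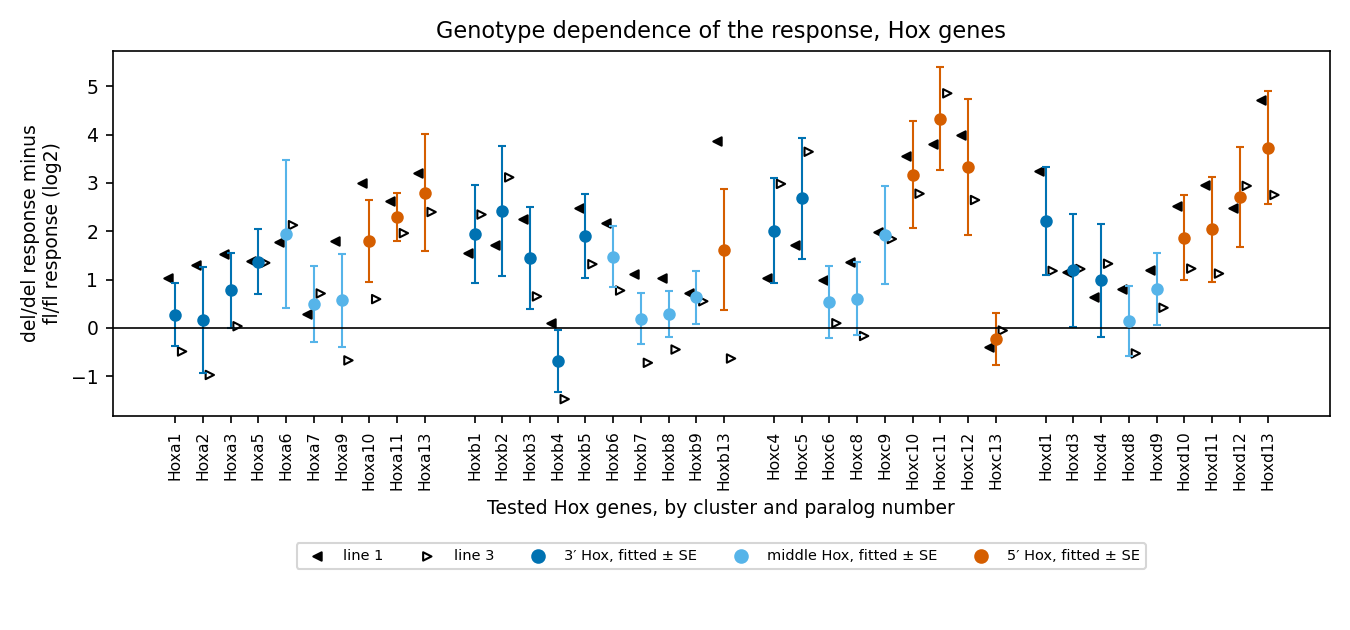
Interaction of genotype and day (del/del response minus fl/fl response, log2) for the 38 tested Hox genes, ordered by cluster and paralog number; circles and bars give the fitted value ± SE, filled triangles line 1 and open triangles line 3. Hoxc11 lies highest at 4.33, the 5′ genes other than Hoxc13 lie at 1.62 or above, and the middle genes have a median of 0.58.

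Promoters of a pair of the posterior genes are shown because CG dinucleotides mark the CpG islands that cover Hox promoters and that Polycomb proteins and DNA methylation act on. The 250 bases before the RefSeq start are given 5′ to 3′ on the gene's strand (RefSeq, GRCm38.p6), with each CG in capitals. The Hoxa11 window (chr6:52245811-52246060, minus strand) holds 13 CG, a number reached by 31.5% of 32851 windows of the same length, and the Hoxd12 window (chr2:74674763-74675012, plus strand) holds 10, reached by 37.8%; the median window holds 6 (quartiles 2 and 16).
Hoxa11: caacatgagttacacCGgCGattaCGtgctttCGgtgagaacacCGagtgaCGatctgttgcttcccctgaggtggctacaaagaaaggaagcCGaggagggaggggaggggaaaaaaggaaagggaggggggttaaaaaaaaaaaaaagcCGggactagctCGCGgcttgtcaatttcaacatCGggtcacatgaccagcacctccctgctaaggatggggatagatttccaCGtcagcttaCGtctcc
Hoxd12: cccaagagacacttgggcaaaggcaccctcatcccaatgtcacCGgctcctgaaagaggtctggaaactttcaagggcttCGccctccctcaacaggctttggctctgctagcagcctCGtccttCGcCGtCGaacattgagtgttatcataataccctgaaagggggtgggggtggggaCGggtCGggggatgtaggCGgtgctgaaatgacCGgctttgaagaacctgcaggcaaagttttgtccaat
Of the 12 posterior genes 7 had an entry in the promoter table, and these windows are described only by their letters.

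Among anterior Hox genes the interaction was mostly positive too, with fl/fl values that were often lower at day 8 than at day 5. For paralog groups 1 to 5 at the 3′ ends, which pattern hindbrain and neck, 14 of 15 were tested and 13 had a positive interaction (median 1.41, range -0.68 to 2.68). The median response was 0.39 in del/del and -1.01 in fl/fl, no member was called in either, and 8 of the 14 were past 2-fold upwards in both lines, though 0 had an unadjusted p under 0.05. The median interaction was 0.49 without del/del day 5 of line 1, 0.80 without fl/fl day 8 of line 3 and 2.38 without del/del day 5 of line 3. Hoxb5 had an interaction of 1.90 ± 0.87 and Hoxc5 of 2.68 ± 1.25, each higher at day 8 than at day 5 in both del/del lines and lower in both fl/fl lines. Hoxc5 had 98 and 168 reads in del/del day 8 and 27 and 0 in fl/fl day 8, so its size too rests on few reads.

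The trunk genes of paralog groups 6 to 9 had the smallest interactions of the family. All 12 were positive in the fit, with a median of 0.58 (range 0.14 to 1.95), but 7 were positive in both lines, and the median was 1.15 in line 1 and 0.26 in line 3. When del/del day 5 of line 1 was left out the median became -0.09. Hoxb6 had an interaction of 1.47 ± 0.63 and Hoxc9 of 1.92 ± 1.01. Hoxb9 had 6.56 and 12.2 rescaled RPM in del/del day 5 and 24.5 and 22.5 in del/del day 8, against 5.61 and 4.81 in fl/fl day 5 and 12.8 and 6.07 in fl/fl day 8, an interaction of 0.63 ± 0.54. At day 5 both del/del libraries already lay above both fl/fl libraries for 8 of these 12 trunk genes and 6 of the 14 anterior ones, where this was so for 15.9% of tested genes, with median differences between genotypes at day 5 of 0.98 in either group (log2). At day 8 they did so for 12 of 12 and 13 of 14, with median differences of 1.65 and 2.48.

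Over the family, 36 of 38 tested Hox genes had a positive interaction, where 50.4% of all tested genes did, with a median of 1.55. Past 2-fold upwards in both lines were 19 of them, where 3.78% of all tested genes were. Removing 1 library moved this median to 0.77 (without del/del day 5 of line 1), 0.96 (without fl/fl day 8 of line 3) or 2.39 (without del/del day 5 of line 3), and it was 1.92 without both libraries that stood apart. By cluster the medians were 1.07 for Hoxa, 1.46 for Hoxb, 2.01 for Hoxc and 1.87 for Hoxd. The cofactors that bind DNA with Hox proteins had a median of 0.06 over 9 members, whose sign held under 16 of 20 alternatives. Meis2 among them had an interaction of 0.84 ± 0.36.

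Outside the Hox family, the genes with a positive interaction and the smallest unadjusted p were led by Mmp11, stromelysin 3, a secreted protease of remodelling mesenchyme. Mmp11 (chr10:75923222-75932502) had 3.03 and 2.94 rescaled RPM in del/del day 5 and 22 and 25.7 in del/del day 8, against 3.40 and 4.03 in fl/fl day 5 and 5.37 and 6.19 in fl/fl day 8. It rose in del/del by 3.0 ± 0.23 (limma adjusted p = 0.0011). The fl/fl response was 0.64 ± 0.23 (limma adjusted p = 0.177) and the interaction 2.35 ± 0.32 (adjusted p = 0.391). The lines gave close values, 2.20 and 2.51. When all 12 libraries of the series were fitted together, Mmp11 was the 1 gene called for the interaction (2.39, limma adjusted p = 0.0316).

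Igfbp3, which binds insulin-like growth factors outside the cell, moved in opposite ways. It had 8.70 and 4.76 rescaled RPM in del/del day 5 and 18.8 and 28.7 in del/del day 8, against 12.1 and 12.9 in fl/fl day 5 and 5.63 and 3.79 in fl/fl day 8. It rose in del/del by 1.85 ± 0.34 (limma adjusted p = 0.0176). The fl/fl response was -1.43 ± 0.34 (limma adjusted p = 0.0761), and the interaction was 3.28 ± 0.48. Arhgef10l, a guanine nucleotide exchange factor, fell in fl/fl by 1.61 ± 0.24 on the log2 scale (limma adjusted p = 0.0196) with a del/del response of 0.50 ± 0.24, an interaction of 2.12 ± 0.33. Bai2, an adhesion G protein-coupled receptor, rose in del/del by 1.47 ± 0.36 (limma adjusted p = 0.0469) against a fl/fl response of -1.65 ± 0.36, an interaction of 3.12 ± 0.50, and its fl/fl day 8 libraries held 31 and 5 reads.

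**Figure D3:**
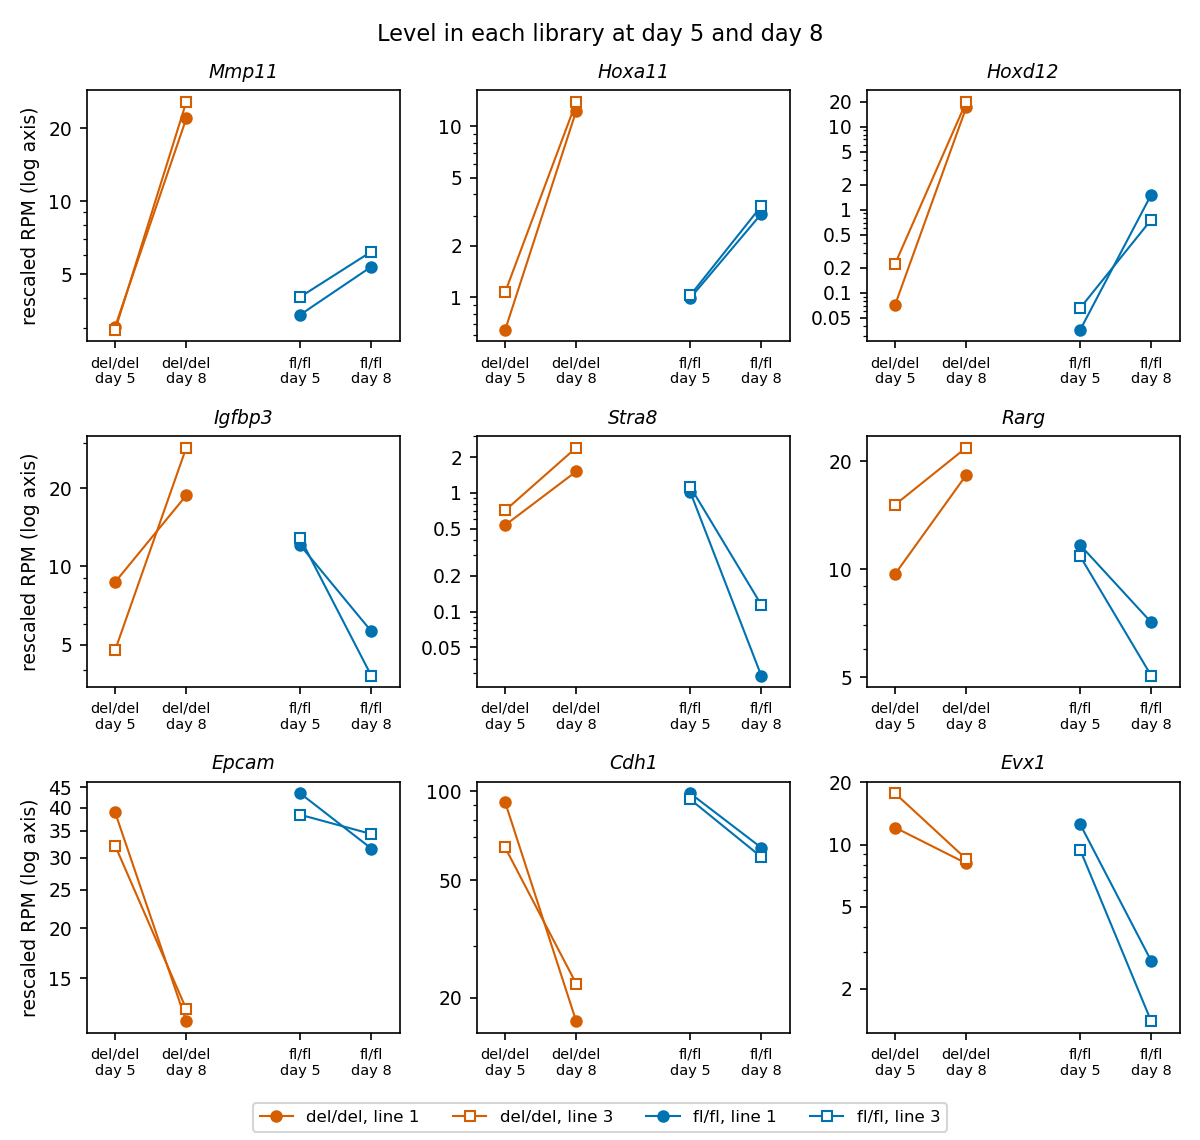
Level of 9 genes in each of the 8 libraries (rescaled RPM, log axis), with the day 5 and day 8 libraries of each line joined; del/del on the left of each panel and fl/fl on the right, filled circles line 1 and open squares line 3. Mmp11, Hoxa11 and Hoxd12 are higher at day 8 in both genotypes with the larger step in del/del, Igfbp3, Stra8 and Rarg go up in del/del and down in fl/fl, Epcam and Cdh1 go down further in del/del, and Evx1 goes down further in fl/fl.

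The negative interactions were led by epithelial genes. Epcam, an adhesion molecule of epithelia and pluripotent cells (chromosome 17), had 38.9 and 32.2 rescaled RPM in del/del day 5 and 11.7 and 12.6 in del/del day 8, against 43.4 and 38.4 in fl/fl day 5 and 31.6 and 34.4 in fl/fl day 8. It fell in del/del by 1.54 ± 0.17 on the log2 scale (limma adjusted p = 0.00209). The fl/fl response was -0.31 ± 0.17 (limma adjusted p = 0.349), and the interaction was -1.24 ± 0.23 (-1.27 and -1.20 in the lines). Cdh1, E-cadherin, had 91.9 and 64.5 rescaled RPM in del/del day 5 and 16.6 and 22.3 in del/del day 8, against 98.4 and 93.9 in fl/fl day 5 and 64.4 and 59.9 in fl/fl day 8. It fell in del/del by 2.0 ± 0.21 on the log2 scale (limma adjusted p = 0.00209) with a fl/fl response of -0.63 ± 0.21, an interaction of -1.37 ± 0.30 (-1.85 and -0.88).

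At day 8 both del/del libraries lay below both fl/fl libraries for 13 of the 14 epithelial genes, and at day 5 for 4, where 31.6% and 18.4% of tested genes did. All 14, which encode cadherin, claudins, keratins and their regulators, had a negative interaction in the fit, with a median of -1.30 (range -1.96 to -0.01), and 10 had an unadjusted p under 0.05, where 3.12% of tested genes did. 2 of the 14 were past 2-fold downwards in both lines, where 1.64% were. In del/del cells 7 fell, where 1.81% of tested genes did, with a median response of -1.38. In fl/fl cells 0 were called, with a median of -0.26. The median interaction was between -1.53 and -1.04 under the 20 alternative settings, relative to the median gene. Summed over the list, the levels were 567 and 438 rescaled RPM in del/del day 5, 215 and 200 in del/del day 8, 602 and 502 in fl/fl day 5 and 420 and 832 in fl/fl day 8, so the fl/fl day 8 libraries lay apart from each other.

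The Epcam promoter is shown for CACCTG, the E-box that the repressors Snail and Zeb bind in epithelial promoters. In the 250 bases before the RefSeq start (chr17:87635729-87635978, plus strand, GRCm38.p6) it occurs 2 times on either strand, 187 and 19 bases before the start, in capitals below. Of the 32851 windows, 2.06% hold it 2 or more times and 17.2% at least 1 time.
Epcam: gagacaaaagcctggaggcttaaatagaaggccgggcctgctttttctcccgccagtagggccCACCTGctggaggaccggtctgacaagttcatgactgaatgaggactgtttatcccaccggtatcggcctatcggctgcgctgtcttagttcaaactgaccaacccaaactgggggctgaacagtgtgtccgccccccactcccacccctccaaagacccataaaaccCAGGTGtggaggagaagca
A match of letters is no evidence of binding in these cells.

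Other genes with negative interactions and small p were Sfmbt2, Fam169a and Ephb1. Sfmbt2, a Polycomb-group protein gene imprinted in extraembryonic tissue, fell in del/del by 1.89 ± 0.31 on the log2 scale (limma adjusted p = 0.0123), with 61.5 and 31.4 rescaled RPM in del/del day 5 and 14.7 and 9.53 in del/del day 8, against 53.1 and 60.7 in fl/fl day 5 and 53.5 and 53.6 in fl/fl day 8. Its interaction was -1.80 ± 0.44 (-2.07 and -1.54), and the fl/fl libraries hardly differed between days. Fam169a fell in del/del by 1.39 ± 0.21 on the log2 scale (limma adjusted p = 0.00746), an interaction of -1.16 ± 0.29. It shares 26.1% of its exon bases with Nsa2 and is therefore uncertain. Ephb1, an ephrin receptor, had an interaction of -4.66 ± 1.18 on 12 and 3 reads in del/del day 8 and 37 and 23 in fl/fl day 8.

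Retinoic acid is the signal that opposes caudal progenitors and starts their differentiation. Of its list of enzymes, binding proteins, receptors and targets, 15 of 17 were tested. A positive interaction was found in 9, where 50.4% of all tested genes had one, and the median was 1.30 (0.89 in line 1 and 1.63 in line 3). 5 were past 2-fold upwards in both lines, where 3.78% of all tested genes were, and 5 had an unadjusted p under 0.05, where 4.42% did. No member was called in del/del (median response 0.62) and 1, Stra8, fell in fl/fl (median -0.41). Stra8, a retinoic acid target that starts meiosis in germ cells, had 15 and 16 reads in del/del day 5 and 75 and 111 in del/del day 8, against 26 and 52 in fl/fl day 5 and 1 and 0 in fl/fl day 8. It fell in fl/fl by 4.24 ± 0.76 on the log2 scale (limma adjusted p = 0.0363). The del/del response was 1.63 ± 0.76 (limma adjusted p = 0.242), and the interaction was 5.87 ± 1.07 (6.67 and 5.08). Both fl/fl day 8 libraries held next to no reads of it. Rarg, the retinoic acid receptor of caudal progenitors, had 9.70 and 15.1 rescaled RPM in del/del day 5 and 18.3 and 21.8 in del/del day 8, against 11.7 and 10.9 in fl/fl day 5 and 7.12 and 5.06 in fl/fl day 8, an interaction of 1.63 ± 0.37 that was 1.63 in either line.

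The promoters of both genes are shown for AGGTCA, the half-site of retinoic acid receptors, searched on both strands and set in capitals. The Stra8 window (chr6:34920698-34920947, plus strand, GRCm38.p6) holds it 2 times, 194 and 38 bases before the RefSeq start, as 1.36% of windows do or exceed. The Rarg window (chr15:102257523-102257772, minus strand) holds it 1 time on the other strand, 225 bases before the start, and 14.0% of windows hold at least 1.
Stra8: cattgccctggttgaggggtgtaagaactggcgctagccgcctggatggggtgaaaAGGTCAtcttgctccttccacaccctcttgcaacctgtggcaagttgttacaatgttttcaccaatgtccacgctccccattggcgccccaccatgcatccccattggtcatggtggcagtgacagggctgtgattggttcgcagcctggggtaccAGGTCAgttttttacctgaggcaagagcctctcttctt
Rarg: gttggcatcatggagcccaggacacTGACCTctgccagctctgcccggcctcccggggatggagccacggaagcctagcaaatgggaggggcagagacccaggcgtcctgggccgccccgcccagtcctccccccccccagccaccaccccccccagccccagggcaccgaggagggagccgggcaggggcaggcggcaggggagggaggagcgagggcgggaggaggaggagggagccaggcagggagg
Half-sites of this length were searched singly, and no spacing between them was scored.

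The pathway of the added factor itself is given from ligand to target. Of the ligands of Gdf11, Nodal, activin and TGF-beta type, 11 of 14 were tested, 8 had a positive interaction (median 0.95, 0.31 in line 1 and 1.45 in line 3), and 5 rose in del/del and 3 in fl/fl. Over all tested genes 50.4% had a positive interaction, 4.46% rose in del/del and 1.31% in fl/fl. Inhba, which encodes the subunit of activin A, had 0 and 0 reads in del/del day 5 and 139 and 144 in del/del day 8, against 3 and 0 in fl/fl day 5 and 15 and 0 in fl/fl day 8. Set against a floor of 3 reads over the del/del day 5 group, it was at least 50.03-fold higher in del/del day 8. Gdf1, a Nodal partner, had an interaction of 2.35 ± 0.85, but all of its exon bases (100%) overlap other genes, which makes it uncertain.

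Of receptors and Smads, the middle of the pathway, 11 of 13 were tested, the median interaction was -0.05 (range -0.94 to 0.50), and 0 had an unadjusted p under 0.05. In del/del 1 rose and 1 fell, and in fl/fl 1 rose. Antagonists and feedback inhibitors had a median of 0.24 over 15 of 17, with 6 rising in del/del and 3 in fl/fl. Ltbp3, which anchors latent TGF-beta in the matrix, rose in del/del by 2.10 ± 0.38 (limma adjusted p = 0.0165), an interaction of 1.33 ± 0.53 that was 0.32 in line 1 and 2.34 in line 3. Bambi, a pseudoreceptor that blocks signalling, had 9.63 and 10.3 rescaled RPM in del/del day 8 against 3.19 and 2.27 in fl/fl day 8, an interaction of 1.17 ± 0.46.

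Genes known to respond to Smad2/3 had a median interaction of 0.35 over 14 of 18 (3 past 2-fold upwards in both lines), with 6 rising in del/del and, in fl/fl, 2 rising and 1 falling. Over all tested genes 3.78% were past 2-fold upwards in both lines, and 4.46% rose in del/del and 1.31% in fl/fl. Tgfbi, a matrix protein named for its induction by TGF-beta, had 1.82 and 0.756 rescaled RPM in del/del day 5 and 24.0 and 35.7 in del/del day 8, against 0.671 and 1.74 in fl/fl day 5 and 4.19 and 2.27 in fl/fl day 8. It rose in del/del by 4.64 ± 0.58 (limma adjusted p = 0.00354), with an interaction of 3.13 ± 0.82 that was 1.08 in line 1 and 5.17 in line 3. The sister branch through BMP had a median of 0.34 over 18 of 20, with 6 rising in del/del and 1 in fl/fl. Msx2, a homeobox gene induced by BMP, had 2.82 and 3.03 rescaled RPM in del/del day 5 and 14.0 and 16.1 in del/del day 8, against 3.51 and 4.31 in fl/fl day 5 and 6.43 and 5.81 in fl/fl day 8. Its interaction was 1.71 ± 0.33 (1.44 and 1.98), close between lines. Bmp4, the ligand, rose in del/del by 1.63 ± 0.30 (limma adjusted p = 0.0178) with an interaction of 0.98 ± 0.42.

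Much of the caudal and neuromesodermal programme fell in both genotypes. Of 17 listed genes 16 were tested, 8 fell and 1 rose in del/del, 7 fell in fl/fl, and the median response was -1.39 in del/del and -2.16 in fl/fl. Over all tested genes 1.81% fell in del/del and 0.626% in fl/fl. Of the 16 caudal genes, 9 had a positive interaction and 7 a negative one. The median interaction was 0.26 (0.79 in line 1 and -0.18 in line 3). Its sign turned when del/del day 5 of line 1 was left out (-0.34) and under a stricter filter on low values (-0.09). T, Cdx2 and Nkx1-2 are named here for their role, with their values known. T (Brachyury), the mesodermal arm of these progenitors, fell by 3.58 ± 0.29 on the log2 scale in del/del (limma adjusted p = 0.00128) and by 2.29 ± 0.29 in fl/fl (adjusted p = 0.012). It had 2.19 and 1.72 rescaled RPM in del/del day 8 against 3.82 and 4.55 in fl/fl day 8, an interaction of -1.28 ± 0.41 that was -0.42 in line 1 and -2.15 in line 3. Sox2, the neural arm, fell by 1.46 ± 0.26 on the log2 scale in del/del (limma adjusted p = 0.0169) with a fl/fl response of -0.23 ± 0.26, an interaction of -1.23 ± 0.37 (-1.08 and -1.38). Cdx2, the caudal homeobox gene, had an interaction of -0.89 ± 0.36 and Nkx1-2, a marker of the preneural tube, one of -0.39 ± 0.54.

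Within the same list Evx1 and Greb1 were among the 9 of 16 genes with a positive interaction. Evx1, a homeobox gene of the posterior streak that neighbours the Hoxa cluster, fell in fl/fl by 2.48 ± 0.35 on the log2 scale (limma adjusted p = 0.0166), with a del/del response of -0.82 ± 0.35. It had 8.11 and 8.51 rescaled RPM in del/del day 8 against 2.73 and 1.39 in fl/fl day 8, an interaction of 1.67 ± 0.49 (1.63 and 1.71). Greb1, known as an oestrogen-induced gene, rose in del/del by 1.43 ± 0.27 (limma adjusted p = 0.0209) with a fl/fl response of -0.19 ± 0.27, an interaction of 1.62 ± 0.39 (1.63 and 1.60). A separate list, of Lin28 and let-7 timing genes, had 12 tested members, 6 with a positive and 6 with a negative interaction (median -0.08). From it, Lin28a is an RNA-binding protein that holds progenitors in an early state and prolongs axis growth in the mouse. Lin28a fell by 2.63 ± 0.28 on the log2 scale in del/del and by 1.70 ± 0.28 in fl/fl (limma adjusted p = 0.00209 and 0.0269), an interaction of -0.92 ± 0.40. Its paralog Lin28b had 3.10 and 5.79 rescaled RPM in del/del day 8 against 1.67 and 0.253 in fl/fl day 8, an interaction of 2.10 ± 1.10 whose fl/fl value in line 3 rests on 2 reads.

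Mesodermal and neural lists were mixed. Paraxial and presomitic genes (12 of 19 tested) had medians of 2.13 in line 1 and -0.89 in line 3, opposite in sign, and 0.67 in the fit. Tcf15, a somite gene, had an interaction of 1.25 ± 0.64, and Pax3, of dermomyotome and dorsal neural tube, rose in del/del by 1.55 ± 0.33 (limma adjusted p = 0.0309), an interaction of 0.87 ± 0.47. Lateral, intermediate and limb mesoderm genes (9 of 17 tested) had a median of 0.99, with 5 rising and 1 falling in del/del and 2 rising in fl/fl. Tbx2, a T-box repressor of limb and flank, had 0.535 and 0.623 rescaled RPM in del/del day 5 and 21.5 and 31.3 in del/del day 8, against 0.671 and 0.957 in fl/fl day 5 and 3.62 and 1.39 in fl/fl day 8. It rose in del/del by 5.49 ± 0.49 (limma adjusted p = 0.00154), with an interaction of 4.00 ± 0.70 (2.90 and 5.11). Prrx1, of limb mesenchyme, rose in both, by 5.29 ± 0.32 in del/del and 3.96 ± 0.32 in fl/fl (limma adjusted p = 0.000363 and 0.00399), an interaction of 1.32 ± 0.46. Hand1, of lateral mesoderm and trophoblast, fell in del/del by 2.10 ± 0.45 on the log2 scale (limma adjusted p = 0.0318), an interaction of -2.07 ± 0.64 (-1.0 and -3.13).

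Of 19 neural progenitor genes 12 were tested, 9 with a positive and 3 with a negative interaction (median 0.53, range -2.11 to 2.43). In both lines 2 were past 2-fold upwards and 2 downwards, where 3.78% and 1.64% of all tested genes were. Zic1, a dorsal neural tube and somite gene and the highest of them, rose in del/del by 3.02 ± 0.41 (limma adjusted p = 0.00506). It had 12 and 19 rescaled RPM in del/del day 8 against 3.04 and 1.77 in fl/fl day 8, an interaction of 2.43 ± 0.58. Of 12 listed markers of postmitotic neurons 5 were tested, 2 with a positive and 3 with a negative interaction (median -0.17, range -1.86 to 3.58). Summed over the list, they had 150 and 71.1 rescaled RPM in del/del day 8 against 227 and 502 in fl/fl day 8. Mnx1, of motor neurons and notochord, had the highest interaction of that list, 3.58 ± 0.88. It rests on 38 and 49 reads in del/del day 8 and 7 and 0 in fl/fl day 8. In signalling lists, Wnt targets had a median of 0.54 (11 of 14 positive), Wnt ligands 0.13 (7 of 13), FGF and ERK feedback genes 0.35 (9 of 12) and Hedgehog genes 0.72 (8 of 11). Of all tested genes 50.4% were positive. The Wnt ligand median kept its sign under 12 of 20 alternative settings (-0.44 to 0.46), and the other medians kept theirs under all 20. The Wnt target median was 0.31 without fl/fl day 8 of line 3 and 0.88 without that of line 1. The FGF and ERK feedback median was 0.54 without fl/fl day 8 of line 1. The Hedgehog median was 0.38 without del/del day 5 of line 1. Wnt4, a ligand of kidney and gonad development, had 19.1 and 18.6 rescaled RPM in del/del day 8 against 2.93 and 1.14 in fl/fl day 8 and an interaction of 3.65 ± 0.65. It rose in del/del by 3.14 ± 0.46 (limma adjusted p = 0.00697). Wnt16 (4.35 ± 1.32, on 25 and 40 reads in del/del day 8 and 6 and 0 in fl/fl day 8) and the Hedgehog effector Gli1 (3.33 ± 0.97, on 44 and 68 reads and on 8 and 2) rest on few reads. The Wnt inhibitors Dkk1 (1.47 ± 0.54) and Notum (0.91 ± 0.30, with 38.1% of its exon bases shared with another gene) were also positive.

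Of 26 collagen genes, which build the extracellular matrix, 23 were tested, 13 rose in del/del (median response 2.58) and 5 in fl/fl (median 1.44), and 20 had a positive interaction with a median of 0.92 (0.58 in line 1 and 1.41 in line 3; 0.53 without fl/fl day 8 of line 3 and 1.49 without that of line 1). Over all tested genes 4.46% rose in del/del, 1.31% rose in fl/fl and 50.4% had a positive interaction. Col12a1, a fibril-associated collagen, rose in del/del by 4.13 ± 0.39 (limma adjusted p = 0.00157) with an interaction of 3.06 ± 0.56 (2.64 and 3.49), and had 11.7 and 14.2 rescaled RPM in del/del day 8 against 3.82 and 2.02 in fl/fl day 8. Col2a1, of cartilage and notochord, had 201 and 229 reads in del/del day 8 and 18 and 2 in fl/fl day 8, an interaction of 3.48 ± 0.80. Fibroblast genes, also used as markers of feeder cells, rose in both genotypes, 11 of 14 tested in del/del and 6 in fl/fl, with a median interaction of -0.10 in line 1 and 1.33 in line 3 (0.80 in the fit, and 0.03 without fl/fl day 8 of line 3). Genes of the mesenchymal transition gave 7 and 6 of 13, with a median interaction of 0.38. Loxl1, an elastin cross-linker, rose in del/del by 2.83 ± 0.30 (limma adjusted p = 0.00201; interaction 1.77 ± 0.42). Igfbp5 rose in both (3.38 ± 0.27 and 2.16 ± 0.27, limma adjusted p = 0.00128 and 0.012; interaction 1.22 ± 0.38). Fibronectin, Fn1, had 274 and 248 rescaled RPM in del/del day 8 against 380 and 793 in fl/fl day 8, an interaction of -1.34 ± 0.45 that was -0.67 in line 1 and -2.0 in line 3.

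**Figure D4:**
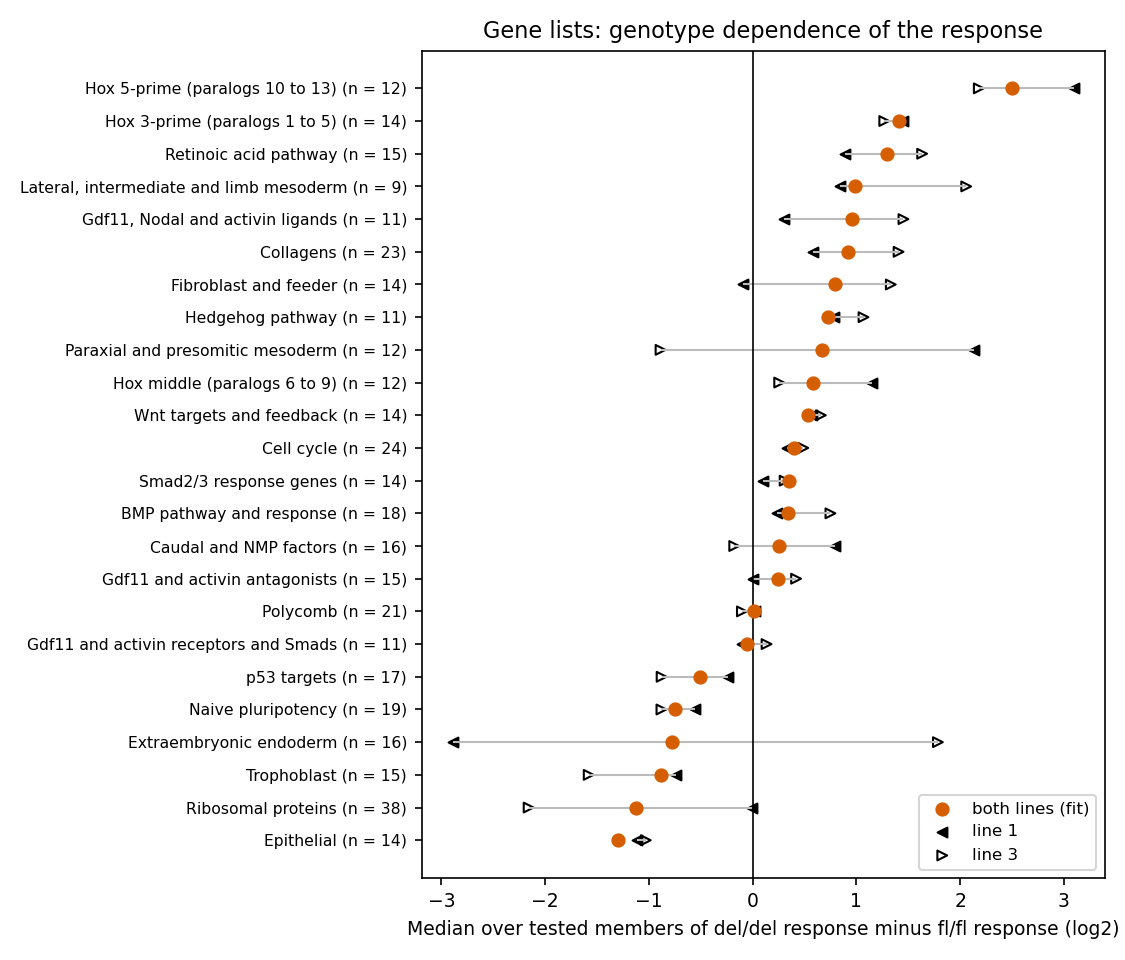
Median interaction (log2, del/del response minus fl/fl response) over the tested members of 24 gene lists, with the number of members in brackets; circles are the fit on both lines, filled triangles line 1 and open triangles line 3. The 5′ Hox list lies highest at 2.50 and the epithelial list lowest at -1.30, with lines on the same side of 0, while others, among them extraembryonic endoderm and paraxial mesoderm, lie on opposite sides of 0 in the lines.

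Genes of naive pluripotency were mostly lower in del/del at day 8: both del/del libraries lay below both fl/fl libraries for 15 of 19, where this was so for 31.6% of tested genes. Of 22 genes of naive pluripotency 19 were tested, 4 had a positive interaction and the median was -0.75 (-0.55 and -0.88 in the lines), or -0.28 without del/del day 5 of line 1 and -0.39 without del/del day 8 of line 3. In del/del 6 fell and 1 rose, in fl/fl 0 were called, and 2 were past 2-fold downwards in both lines. Over all tested genes 1.81% fell in del/del and 1.64% were past 2-fold downwards in both lines. Tdh, threonine dehydrogenase of ES cells, fell in del/del by 2.01 ± 0.37 on the log2 scale (limma adjusted p = 0.0178), with 4.04 and 2.24 rescaled RPM in del/del day 8 against 11.8 and 14.2 in fl/fl day 8 and an interaction of -1.67 ± 0.52. Of the Polycomb genes, which silence Hox clusters, 21 were tested with a median of 0.01, whose sign held under 14 of 20 alternatives. Cbx7, the Polycomb subunit of ES cells, fell in del/del by 1.01 ± 0.24 on the log2 scale (limma adjusted p = 0.0461), an interaction of -1.21 ± 0.34.

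Chromatin silencing by Smchd1 is best known at the X chromosome, imprinted regions and protocadherin clusters. The 461 tested genes of the X chromosome had a median interaction of -0.01, and the medians of chromosomes 1 to 19 and X lay between -0.06 and 0.05. All cells were male and so had no inactive X, and the X median therefore cannot bear on silencing there. The Snrpn cluster had a median of 0.21 over 7 genes, which turned to -0.19 without del/del day 5 of line 1 and to -0.03 under a stricter filter. The other imprinted genes had a median of -0.43 over 26, 9 of them positive. Mest, a paternally expressed gene, had 44.2 and 54.7 rescaled RPM in del/del day 8 against 13.6 and 4.04 in fl/fl day 8, an interaction of 2.49 ± 0.66, and shares 23.1% of its exon bases with Copg2. Dio3, of the Dlk1 imprinted region, had an interaction of -2.85 ± 0.91 on 24 and 9 reads in del/del day 8 and 103 and 51 in fl/fl day 8. Of 57 listed clustered protocadherin genes, adhesion molecules of neurons, 23 had a row in the table and 3 passed the filter (median interaction 0.05, and 1.07 for those with a read when no filter was applied). The 20 that did not pass, all of the Pcdhb cluster, summed to 4 and 15 reads in del/del day 5 and 181 and 235 in del/del day 8, against 8 and 21 in fl/fl day 5 and 36 and 3 in fl/fl day 8. In rescaled RPM, with 0 reads counted as 0, these sums were 0.143 and 0.667 in del/del day 5 and 3.67 and 5.11 in del/del day 8, against 0.316 and 0.457 in fl/fl day 5 and 1.03 and 0.379 in fl/fl day 8. Both day 8 sums of del/del lay above both of fl/fl, and the genotypes overlapped at day 5. At day 8, 16 of the 20 genes lay so too, where 32.6% of the tested genes did, which passed a filter that these did not. The fl/fl day 8 library of line 3 held reads of only 1 of the 20, so a few reads in del/del place a gene above it. These genes have few reads each and resemble each other in sequence, so single genes are uncertain and no test was made. Pcdhb11, for example, had 12 and 27 reads in del/del day 8 and 1 and 0 in fl/fl day 8.

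The ribosomal protein list differed between the lines. Its 38 genes had a median interaction of -1.13, which was -0.01 in line 1 and -2.16 in line 3, and -0.16 without the pair of libraries that stood apart. Summed, they had 531 and 573 rescaled RPM in del/del day 8 against 584 and 1610 in fl/fl day 8. Cell cycle genes (median 0.40, 21 of 24 positive) and p53 targets (median -0.50, 2 of 17 positive) had medians of the same sign in either line, at 0.33 and 0.49 for the cell cycle and -0.24 and -0.88 for p53 targets. Without fl/fl day 8 of line 3 the cell cycle median was 0.06, and without that of line 1 it was 0.77. For p53 targets these values were -0.33 and -0.83. Interferon-stimulated genes had a median of -0.65 over 13 of 18. It was -0.02 under a stricter filter on low values, -0.20 without fl/fl day 5 of line 1 and -0.31 without del/del day 8 of line 3. Chac1, a stress gene that degrades glutathione, fell in fl/fl by 3.08 ± 0.57 on the log2 scale (limma adjusted p = 0.0394), with 34 and 2 reads in fl/fl day 8 and an interaction of 3.65 ± 0.80.

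Markers of other cell types differed between groups and between lines. The 19 extraembryonic endoderm markers summed to 573 and 450 rescaled RPM in del/del day 5 and 567 and 878 in del/del day 8, against 508 and 843 in fl/fl day 5 and 1379 and 1770 in fl/fl day 8. Their median interaction (16 tested) was -2.89 in line 1 and 1.79 in line 3, and Sparc, a matrix protein on that list, had 87.5 and 87.7 rescaled RPM in del/del day 8 against 125 and 338 in fl/fl day 8. The 17 trophoblast markers summed to 135 and 92.8 rescaled RPM in del/del day 8 and 242 and 579 in fl/fl day 8, with a median interaction of -0.89 over 15 tested, 2 falling in del/del and 0 called in fl/fl. Several, such as Cdx2 and the keratins of the epithelial list, are shared with lists above. Endothelial and blood markers summed to 28.5 and 43.9 rescaled RPM in del/del day 8 against 83.4 and 78.0 in fl/fl day 8, with Tyrobp at 0 reads. Definitive endoderm markers summed to 32.9 and 50.4 in del/del day 8 against 73.2 and 65.2 in fl/fl day 8, with Cer1 at 0. At day 5 they summed to 62.8 and 51.0 in del/del and 63.8 and 69.1 in fl/fl. Their median interaction (7 tested) was -0.57 in line 1 and 0.23 in line 3. Naive markers summed to 102 and 85.0 rescaled RPM in del/del day 8 against 131 and 158 in fl/fl day 8. Caudal markers, of the labelled cell type, summed to 93.8 and 118 against 78.3 and 72.9, after sums at day 5 of 176 and 248 in del/del and 201 and 148 in fl/fl. None of the 15 genes of the 2-cell-like list passed the filter. The part of these markers in the interactions above was not tested.

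The lines, which share no library, agreed in part. Across the 13267 genes the interaction of line 1 and that of line 3 correlated at r = 0.163 (rank correlation 0.156), a description over genes, and had the same sign for 55.6% of genes. The spread was wider in line 3, with an SD over genes of 1.20, than in line 1, with 0.93. Of the 1045 genes past 2-fold upwards in line 1, 73.2% had the same sign in line 3 and 47.9% were past 2-fold there too. Of the 932 genes past 2-fold downwards in line 1 the shares were 50.2% and 23.4%. A further 99 genes were past 2-fold upwards in line 1 and downwards in line 3, and 227 the reverse. The shift of line 3 went with abundance: its median interaction was 0.24 for the 5422 genes with 20 to 200 mean reads and -0.81 for the 193 with over 2000, against 0.05 and -0.20 in line 1.

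**Figure D5:**
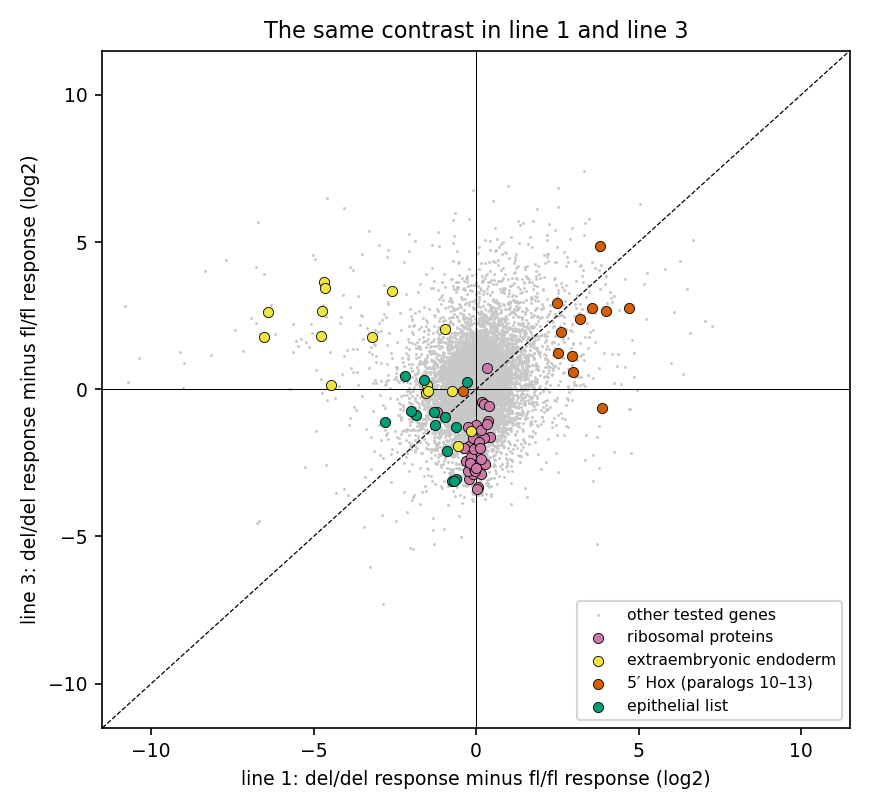
Interaction of each tested gene in line 1 (horizontal axis, log2) and in line 3 (vertical axis, log2), each from 4 libraries with no replicate; the dashed diagonal marks equal values. Posterior Hox genes lie in the upper right except Hoxb13 and Hoxc13, extraembryonic endoderm genes mostly in the upper left, and ribosomal protein genes mostly near 0 in line 1 and below 0 in line 3.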

How the data were processed

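RNA was sequenced from 12 libraries, of which the 8 of day 5 and day 8 were used. Per the labels' protocols, total RNA was extracted with a Zymo Quick RNA kit and libraries followed standard Illumina protocols. The submitters' processing notes name bcl2fastq, edgeR, TopHat2 2.0.12 and genome build mm10 without their roles. Values are the authors' deposited log2 RPM (reads per M reads). Taken out of the log2, 100% of values were whole multiples of 1 read within 0.02 reads, with 0 reads entered as 0.9. The denominators were 14.9 to 34.0 M (mega) reads, of which 10.1 to 24.3% lay in genes, so libraries were put on a common scale through the median of their log ratios.

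A linear model with 4 group means was fitted with limma 3.58.1 (R 4.3.3; tables and figures with Python 3.11.15, numpy 2.4.6, pandas 2.3.3 and matplotlib 3.10.9) to genes above 0 on the deposited log2 scale in 2 or more of the 8 libraries. The moderated test with a mean-variance trend was two-sided, with Benjamini-Hochberg adjustment over all tested genes at 0.05, and the script was tested on simulated data. With 2 libraries a group and nothing to say that lines were cultured more than once, p-values measure the spread between these libraries. Lines gave values without a test. The lines pair the libraries, since each was split into both genotypes per the labels; deviations from the group means correlated at -0.18 to 0.28 within a line. The alternatives were other scalings, filters, a prior of 2 reads, voom, array weights, no trend, all 12 libraries, a block for line and each library left out.

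The 47 gene lists, the contrast and the naming rule were chosen with earlier results of these data known. The rule took Smchd1, then the genes called for the interaction or, as none was, the 5 per direction with the smallest unadjusted p, the same sign in both lines and at least 10 reads in at least 3 of the 4 groups, up to 4 called members of each list discussed or 2 where none was, and any Hox gene. T, Cdx2 and Nkx1-2 were added for their role. Exon overlaps came from GENCODE and promoter windows from RefSeq; 44 of the 70 genes followed under the alternatives had a promoter entry. Some items are not reported here. The depth limits genes of few reads, and counts of reads cover counting error only.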

Additional observations from a re-analysis of the deposited data

Results flagged for a closer look

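For 18 of the 70 genes followed, both del/del pairs of libraries moved one way between day 5 and day 8 and both fl/fl pairs the opposite way. The naming rule used the p of this same contrast and, for the leading genes, the same sign in both lines. The number of such genes among those named is therefore no evidence for the contrast. Over all tested genes, 608 (4.58%) went up in both del/del pairs and down in both fl/fl pairs, and 538 (4.06%) the reverse, so such a pattern in a single gene is common in these libraries. The limma test of the difference passed for none of the 18 (smallest adjusted p 0.39 over all genes), and groups of 2 libraries were not tested for outlying samples. With del/del up and fl/fl down, the interactions (log2) were 3.28 for Igfbp3, 2.12 for Arhgef10l, 3.12 for Bai2, 1.90 for Hoxb5, 2.68 for Hoxc5 and 0.84 for Meis2. In the same direction they were 5.87 for Stra8, 1.63 for Rarg, 1.62 for Greb1, 0.91 for Notum, 3.33 for Gli1 and 2.35 for Gdf1, and 3.48 for Col2a1, 3.58 for Mnx1, 2.49 for Mest and 3.65 for Chac1. With del/del down and fl/fl up they were -4.66 for Ephb1 and -2.85 for Dio3.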

How the results depend on the processing

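The interaction called 0 genes in either direction in the fit reported. The number called as higher was 128 on the deposited scale and 1 with all 12 libraries, and leaving out each library in turn gave 0 to 319 higher and 0 to 191 lower; under every other alternative run it was 0, with 743 to 1855 genes at an unadjusted p under 0.05. The del/del response called 832 genes, 1650 with all 12 libraries, 527 with the replicate block for line, 2554 without the 2 libraries that stood apart (chosen after the values were seen) and 110 to 1204 with each library left out. The fl/fl response called 257 genes, 147 with no filter, 965 with all 12 libraries, 95 with the replicate block, 154 with array weights, 146 without the mean-variance trend, 557 without the 2 libraries that stood apart and 4 to 1487 with each library left out, where the lone library of a group is assumed to vary like the others. The block for line changed no call of the interaction. The median of the tested Hox genes, 1.55, was 2.84 without rescaling (the median of all genes was then 1.29) and 0.768 to 2.39 with each library left out. On the deposited scale the interaction turned positive for Smchd1 (0.90), Epcam (0.0545), Fam169a (0.13), Hoxc13 (1.06), T (0.0043), Cdx2 (0.40), Sox2 (0.0601), Nkx1-2 (0.90), Cbx7 (0.0773), Lin28a (0.36) and Sparc (0.0434), and for Hoxc13 with no filter (0.0205); the first 11 follow from the shift of the median gene. No other of the 70 genes followed turned its sign under the alternatives run; the stricter filter kept 56 of them. The fl/fl day 8 library of line 3, with 1.51 M gene reads, limits what can be said of genes of few reads.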
